A study of Mus musculus with 36 samples.

Results

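A set of 9 complement genes was followed across the brains of Ndufs4 knockout and wild-type mice with and without CP2. They were C1qa, C1qb and C1qc, C4b and C3, the receptor genes C3ar1, C5ar1 and Itgam, and the inhibitor gene Serping1, chosen by symbol as the rows of the deposited count table, which makes 9 of the 56980 gene rows. All 9 passed the filter on low counts, as did 25601 genes in all.

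The series held 36 samples of polyA RNA from brain of mice aged 37 to 45 days (the design text speaks of hippocampus and cortex). Ndufs4 encodes a subunit of mitochondrial complex I, and mice lacking the gene serve as a model of the mitochondrial disorder Leigh syndrome. CP2 is a small-molecule inhibitor of complex I. Each mouse was either an Ndufs4 knockout, labelled ndufs4-ko (KO below), or wild type (WT), and received CP2 or vehicle by gavage on 3 consecutive days, so that the vehicle groups were dosed by gavage too. The sample titles carry a letter, F or M, which the labels do not explain and which is used here as a label only. Each of the 4 F groups held 5 samples (both genotypes, CP2 or vehicle). In M the CP2 groups of both genotypes held 5 samples each and the vehicle groups 3 each. The labels name neither the strain nor the construct of the knockout, and do not say whether 1 sample is 1 animal, so the p-values measure the spread between these samples.

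Complement is a cascade of plasma and tissue proteins. In the classical pathway the C1 complex, built from C1q with its C1r and C1s proteases, cleaves C4 and then C2, and the product cleaves C3; fragments of C3 and C5 act through the receptors C3ar1 and C5ar1, and the surface-bound C3 fragment is recognised by complement receptor 3, whose alpha chain is Itgam. In the brain C1q is made mainly by microglia, C4b by astrocytes and oligodendrocytes among other cells, and the C1q and C3 route is known for the tagging of synapses that microglia remove.

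C1qa, C1qb and C1qc encode the 3 chains of C1q and lie side by side on chromosome 4, with 0 protein-coding genes between neighbours in the RefSeq table. The 250 bases upstream of the start of C1qb, C1qc and Itgam are printed because these are the microglial members with the motif GAGGAA, the core of the sites bound by PU.1, the main transcription factor of the myeloid lineage. They come from RefSeq on GRCm38.p6, each 5′ to 3′ along the gene, in lower case with GAGGAA or its reverse complement in capitals.
C1qb, chr4:136886201-136886450, minus strand: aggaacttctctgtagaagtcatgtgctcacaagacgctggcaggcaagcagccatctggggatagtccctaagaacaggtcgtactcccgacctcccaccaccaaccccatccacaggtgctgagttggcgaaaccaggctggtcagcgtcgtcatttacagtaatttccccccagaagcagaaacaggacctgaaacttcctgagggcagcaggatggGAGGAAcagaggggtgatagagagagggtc
C1qc, chr4:136892915-136893164, minus strand: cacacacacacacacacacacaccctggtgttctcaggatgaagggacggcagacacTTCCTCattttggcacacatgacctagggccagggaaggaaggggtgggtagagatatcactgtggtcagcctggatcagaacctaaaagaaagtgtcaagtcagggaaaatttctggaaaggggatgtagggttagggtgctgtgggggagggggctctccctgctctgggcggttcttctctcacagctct
Itgam, chr7:128062390-128062639, plus strand: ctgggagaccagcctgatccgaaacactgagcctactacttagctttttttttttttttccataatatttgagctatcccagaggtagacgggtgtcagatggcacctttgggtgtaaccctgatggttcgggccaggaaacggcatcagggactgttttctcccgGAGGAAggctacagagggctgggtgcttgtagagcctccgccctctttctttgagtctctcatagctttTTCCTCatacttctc
GAGGAA began 30 bases before the start of C1qb and, as its reverse complement, 193 bases before that of C1qc. Itgam held it at 84 bases and, as the reverse complement, at 15 bases. Searched on both strands, 23.3% of 32851 promoter windows of the same length held this motif, so a match in a window is common. The windows of C3, C3ar1 and C5ar1, the other members in the table, did not hold these letters. The letters TTCNNNGAA of a STAT element, in 7.0% of the windows, were in 0 of the 6 member windows.

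Gene counts summed to 46124500 to 88559900 per sample, and the members together had 6009 to 23780 counts per sample. Ndufs4 itself was lower in KO with vehicle (log2 fold change -0.65, SE 0.0696, adjusted p = 3.75e-07) and under CP2 (-0.45), but kept 27.4 to 39.1 CPM (read counts scaled to normalised library size) in the KO samples, and the labels do not say which exons were removed. All 12 genes of a microglia marker list had counts in every sample. Of 10 genes that mark monocytes and neutrophils, 8 were at 0 in some sample, and the list summed to at most 5.52 CPM. The sample L291 (KO CP2 M) held 47.3 CPM of Xist against a median of 0.170 CPM over the M samples. The F samples held 439 to 798 CPM of Xist. Pairs of L266 with the others of that group had a mean chi-square per gene of 87.7 to 126 against 20.0 to 43.8 for pairs without it. The correlation of log2 CPM did not set L266 apart, with r = 0.9938 to 0.9956 for pairs with it and 0.9925 to 0.9951 for pairs without it. Results that use KO CP2 M were also computed without L266 and L291. The share of reads outside annotated genes moved with the groups: it was 5.18% to 9.06% in KO CP2 M against 9.05% to 13.2% in WT CP2 M, and 6.19% to 11.7% in KO vehicle F against 5.09% to 7.04% in WT vehicle F. In RNA from whole tissue, fewer cells of a type and less RNA per cell cannot be told apart.

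Per kilobase of exon the C1q chains were the most abundant members. The median over 36 samples was 38.8 CPM per kb for C1qb, 38.4 for C1qa and 18.3 for C1qc. C4b followed at 5.92 CPM per kb and Serping1, the C1 esterase inhibitor, at 4.74. The receptor genes were lower, with 1.25 CPM per kb for Itgam, 0.569 for C3ar1 and 0.290 for C5ar1. C3, the central component, was the lowest at 0.233 CPM per kb. The values for C3 rest on 24 to 197 counts per sample and those for C5ar1 on 4 to 108, so both have wide errors.

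**Figure D1:**
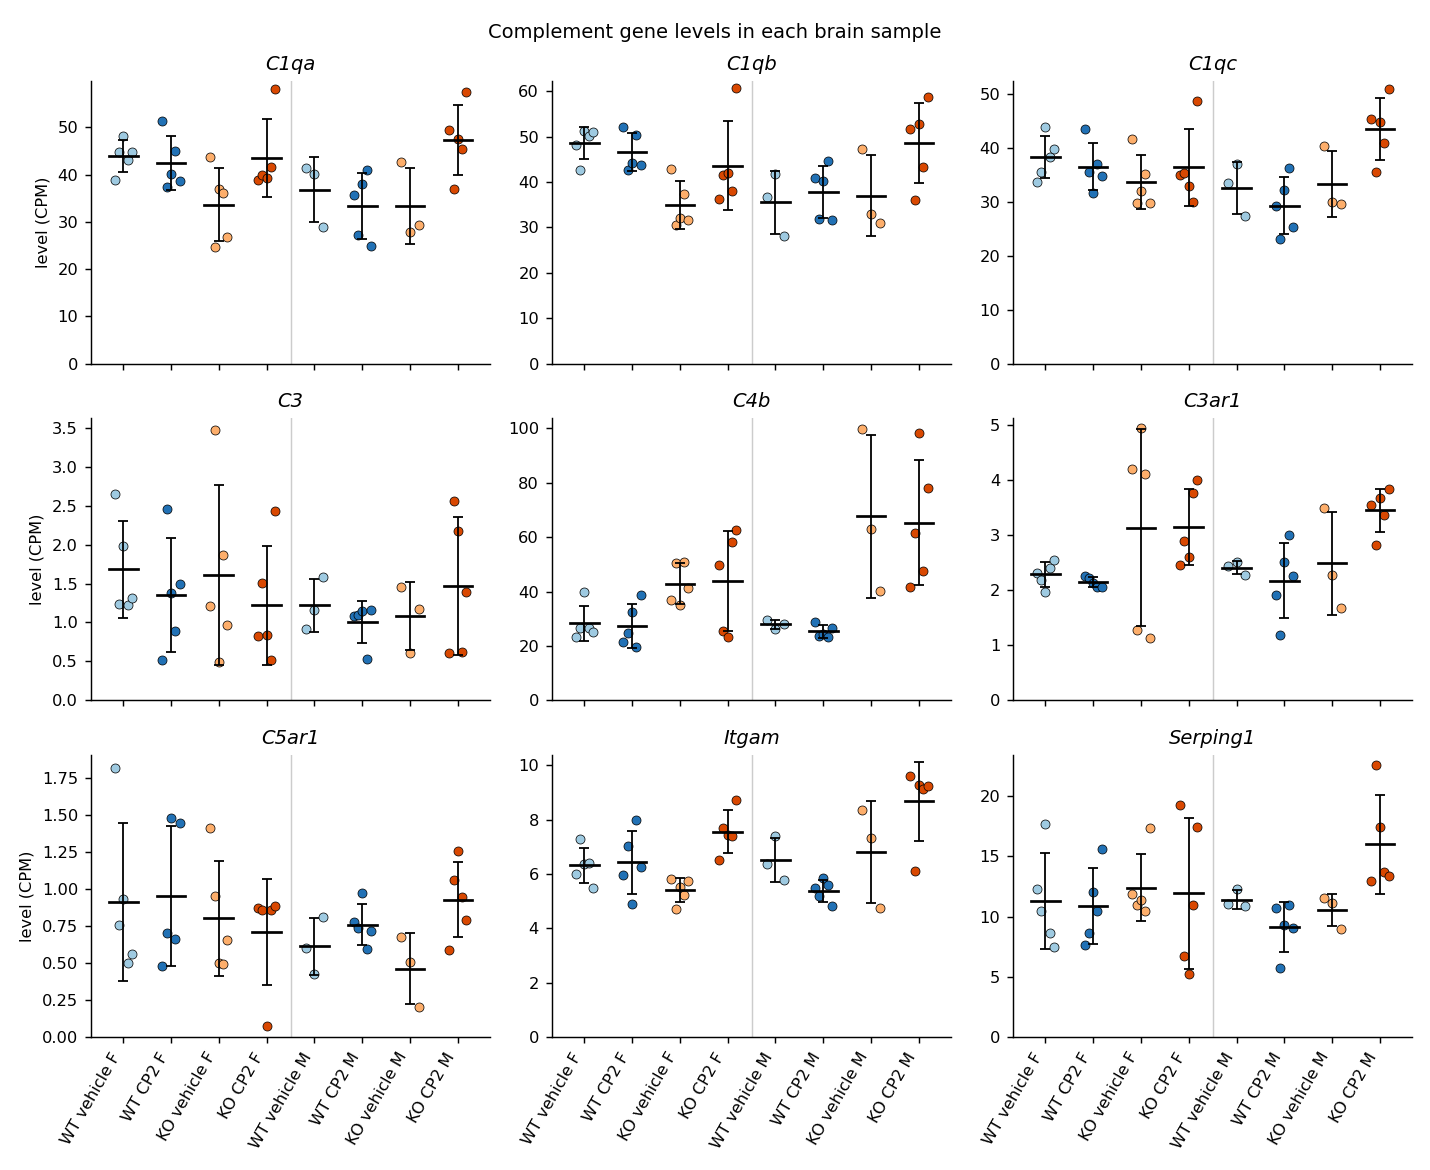
Levels of the 9 complement genes in CPM for each of the 36 samples (points), with the group mean (line) and SD (bar); F groups stand left and M groups right of the grey line, and each panel has its own scale from 0. KO CP2 M has the highest mean for C1qa, C1qc, C3ar1, Itgam and Serping1, and the KO groups have the 4 highest means for C4b.

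With vehicle, the knockout differed in C4b. Averaged over F and M, 1 of the 9 members was called at an adjusted p under 0.05, against a background of 6.67% of all tested genes, and this was C4b, which was higher in KO. Within F 1 member was called, C1qb, which was lower in KO; 4.96% of all genes were called there. Within M edgeR called 0 members (1 at an unadjusted p under 0.05, and 1 by DESeq2, C4b), where 0.516% of all genes were called. The members' median log2 fold change was -0.08 for the average, beside 0.02 for all tested genes.

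Under CP2, the knockout differed in more members. Averaged over F and M, C1qc, C4b, C3ar1 and Itgam were higher in KO, which is 4 of 9 called; 11.6% of all genes were called, and 5.54% were called higher. In M again 4 of 9 were called and higher, namely C1qa, C1qc, C4b and Itgam, against 9.99% of all genes called and 4.75% called higher. In F edgeR called 0 members (1 at an unadjusted p under 0.05, 0 by DESeq2), with 2% of all genes called. The median log2 fold change of the members was 0.29 for the average and 0.58 in M, beside 0.01 and 0.00 for all tested genes.

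Between CP2 and vehicle, 2 members passed the test in the knockout and 0 in the wild type. In KO, averaged over F and M, C1qa and Itgam rose, 2 of 9 called, where 3.91% of all genes were called. Within F edgeR called 0 members (3 at an unadjusted p under 0.05, 0 by DESeq2) with 0.0859% of all genes called, and within M it called 0 members (4 unadjusted, and 1 by DESeq2, C1qa) with 5.1%. In WT edgeR called 0 members in the average, in F and in M, with 0 members at an unadjusted p under 0.05 and 0 by DESeq2 in each, and 0% of all genes. These comparisons share samples with those of KO against WT.

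**Figure D2:**
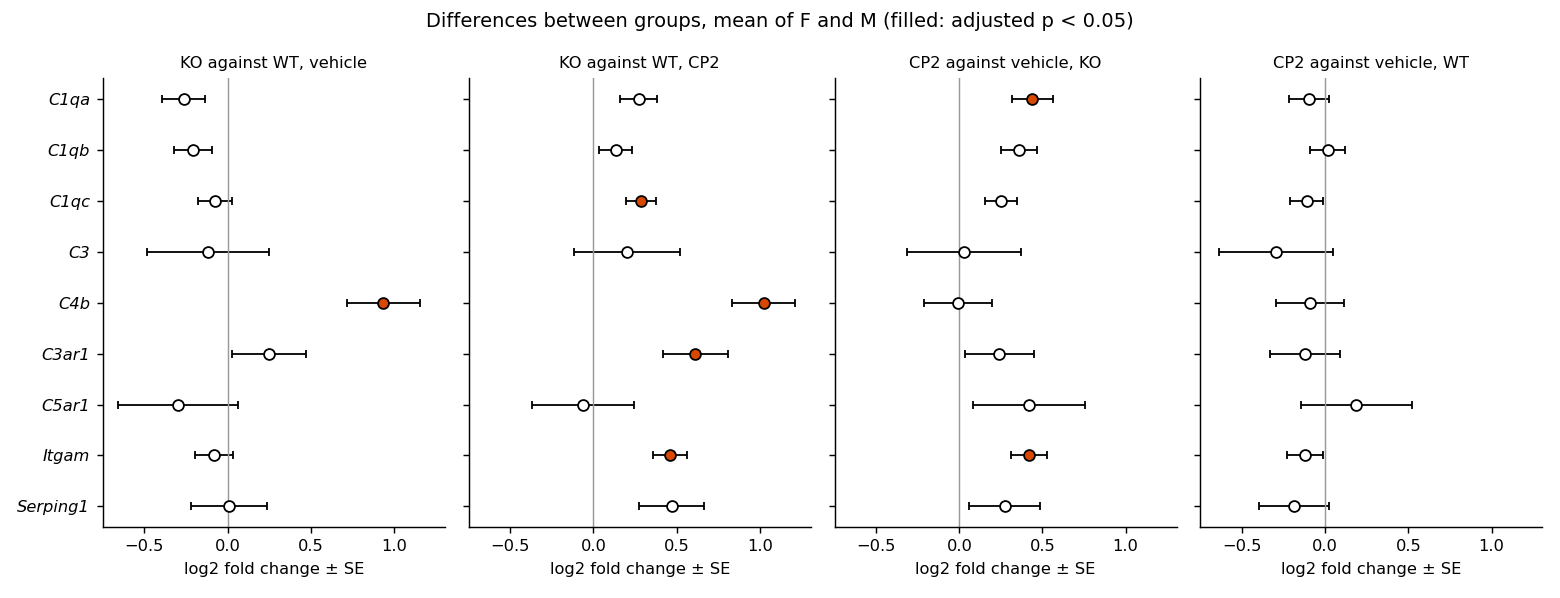
Log2 fold changes (x axis) with standard errors for the 9 members in the 4 comparisons averaged over F and M; filled points have an adjusted p under 0.05. C4b is shifted by about the same amount in both comparisons of KO with WT, while C1qa and Itgam are filled in the comparison of CP2 with vehicle in KO.

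C4b, which encodes the component C4 that the C1 complex cleaves, carried the largest difference of the members called. In F with vehicle, KO samples had 35.0, 36.9, 41.4, 50.4 and 51.0 CPM and WT samples 23.4, 25.2, 26.5, 26.7 and 39.8 CPM. In M with vehicle the values were 40.1, 62.8 and 99.8 CPM in KO and 26.2, 28.2 and 29.5 CPM in WT. The M groups did not overlap, as for 20.9% of all tested genes in this comparison of 3 with 3, and in F only the highest WT sample, L278, reached into the KO range. Averaged over both letters C4b was 1.91-fold higher in KO (log2 fold change 0.94, SE 0.22, adjusted p = 0.00942). By letter it had a log2 fold change of 0.60, SE 0.27, adjusted p = 0.196 in F and a log2 fold change of 1.27, SE 0.35, adjusted p = 0.0905 in M, so neither letter alone passed the test.

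With CP2, C4b in F lay at 23.3, 25.5, 49.8, 58.2 and 62.8 CPM in KO and at 19.7, 21.3, 24.7, 32.5 and 38.9 CPM in WT. In M it lay at 41.6, 47.7, 61.5, 78.0 and 98.1 CPM in KO and at 23.3, 23.6, 24.4, 26.8 and 28.8 CPM in WT. All 5 KO samples of M were above all 5 WT samples, which 11.1% of all genes matched in either direction, while in F KO samples L216 and L227 stayed within the WT range. The average was 2.03-fold higher in KO (log2 fold change 1.02, SE 0.19, adjusted p = 5.91e-04), with 0.68 (SE 0.27) in F (adjusted p = 0.193) and 1.37 (SE 0.27) in M (adjusted p = 0.00139). The call of the average held in all 16 fits without 1 vehicle sample and all 20 without 1 CP2 sample. With the off-gene read share (reads outside annotated genes) in the model C4b kept its size with vehicle but lost the call (0.92) and kept it under CP2 (1.03).

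No difference in C4b between CP2 and vehicle passed the test. The log2 fold change of CP2 against vehicle was -0.01 (SE 0.20) in KO and -0.09 (SE 0.20) in WT, and the genotype by CP2 interaction was 0.09 (SE 0.29), adjusted p = 0.923. The order of the 8 group means put the 4 KO groups first, from 67.6 ± 30.1 CPM (SD, n = 3) in KO vehicle M to 42.9 ± 7.43 CPM (SD, n = 5) in KO vehicle F. The WT groups followed, from 28.3 ± 6.53 CPM (SD, n = 5) in WT vehicle F to 25.4 ± 2.34 CPM (SD, n = 5) in WT CP2 M. Neighbours in this order overlapped in range. C4a is a near-identical copy of C4b, and reads that match both could be lost or moved between them; C4a was listed at 0.237 to 2.08 CPM and had a log2 fold change of -0.51 (SE 0.26) under CP2 (adjusted p = 0.222), against the direction of C4b.

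With vehicle, 1 of the 3 C1q genes was lower in KO, and in F. C1qb fell in KO in F (log2 fold change -0.48, SE 0.14, adjusted p = 0.0444), with 30.5, 31.6, 32.1, 37.4 and 43.0 CPM in KO and 42.5, 48.1, 50.2, 51.0 and 51.2 CPM in WT. Only L246, at 43.0 CPM, reached the WT range, which begins at 42.5 CPM. In M, C1qb had 31.0, 32.9 and 47.2 CPM in KO and 28.2, 36.6 and 41.8 CPM in WT, and its log2 fold change was 0.06. C1qa and C1qc had a log2 fold change ofs of -0.38 (SE 0.16) and -0.18 (SE 0.13) in F and were not called (adjusted p = 0.156 and 0.447). The C1qb call was lost without any 1 of L252, L278, L279, L281, L282, L283, L295 or L296 (log2 fold change -0.50 to -0.42, adjusted p 0.0555 to 0.119), with no filter on low counts, with RLE size factors and with either covariate. In the same comparison 1 of 12 microglia markers, Fcrls, was lower and 0 were higher, where 4.96% of all tested genes were called. The list summed to 312 to 440 CPM in KO and 381 to 456 CPM in WT. With the mean of these markers as a covariate C1qb was -0.20.

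Under CP2 2 of the 3 C1q genes, C1qc and C1qa, were higher in KO in M. C1qc had 35.6, 41.0, 44.8, 45.4 and 51.0 CPM in KO and 23.2, 25.3, 29.3, 32.2 and 36.3 CPM in WT (log2 fold change 0.58, SE 0.13, adjusted p = 0.00292). C1qa had 36.8, 45.5, 47.6, 49.5 and 57.4 CPM in KO and 25.0, 27.1, 35.6, 38.0 and 40.9 CPM in WT (log2 fold change 0.51, SE 0.16, adjusted p = 0.0371). For both genes 4 of the 5 KO samples lay above every WT sample, and L291 lay within the WT range. C1qb had 36, 43.4, 51.7, 52.8 and 58.6 CPM in KO and 31.6, 31.9, 40.1, 40.8 and 44.5 CPM in WT, and its log2 fold change of 0.36 (SE 0.14) did not pass (adjusted p = 0.102). Without L291 C1qb was called (0.45, adjusted p = 0.0407), and C1qa lost its call without any 1 of L259, L262, L266, L289, L292 or L299 (0.42 to 0.53, adjusted p 0.0512 to 0.124), with no filter on low counts and when the M samples were fitted alone (0.51).

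In F with CP2 the C1q genes did not separate the genotypes. C1qa had 38.8, 39.2, 39.9, 41.5 and 58.1 CPM in KO and 37.3, 38.7, 40.0, 45.0 and 51.3 CPM in WT (log2 fold change 0.04, SE 0.16, adjusted p = 0.948). C1qc had 29.9, 32.9, 35.1, 35.4 and 48.7 CPM in KO and 31.7, 34.7, 35.5, 37.1 and 43.6 CPM in WT, a log2 fold change of -0.00290 (SE 0.13). C1qb was -0.09 (SE 0.14), and L234 had the highest KO value of all 3 genes. Averaged over F and M, C1qc was called (log2 fold change 0.29, SE 0.09, adjusted p = 0.0335), and C1qa (0.27, adjusted p = 0.117) and C1qb (0.13, adjusted p = 0.451) were not. The C1qc call was lost without any 1 of L234, L240, L257, L262, L266, L289, L292, L299 or L311 (0.22 to 0.28, adjusted p 0.0531 to 0.0850), and also with no filter on low counts.

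In the knockout C1qa was called higher with CP2 than with vehicle in the average over F and M, but in neither letter alone. Vehicle samples of KO had 24.7, 26.7, 36.2, 36.9 and 43.7 CPM in F and 27.9, 29.4 and 42.6 CPM in M, against the CP2 values given above. Only L246 in F and L310 in M, the highest vehicle samples, reached into the range of the CP2 samples of their letter. The average was 1.36-fold higher with CP2 (log2 fold change 0.44, SE 0.12, adjusted p = 0.0347), with 0.37 in F (adjusted p = 0.365) and 0.51 in M (adjusted p = 0.110). C1qb came close to the threshold (log2 fold change 0.36, SE 0.11, adjusted p = 0.0552) and C1qc had a log2 fold change of 0.25, SE 0.10, adjusted p = 0.151. In WT the 3 genes had a log2 fold change ofs of -0.10, 0.01 and -0.11. The C1qa call was lost without any 1 of L234, L266, L279, L281, L283, L292, L299, L319 or L322 (0.37 to 0.46, adjusted p 0.0521 to 0.145) and with no filter on low counts, while C1qb was called without any 1 of L201, L233, L246, L291, L298 or L310 (0.38 to 0.46, adjusted p 0.0174 to 0.0491), without L266 and L291 together (0.40) and by DESeq2 (0.34).

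Microglia markers moved with these differences. Under CP2, 6 of 12 were higher in KO in the average and 7 of 12 in M, with none lower. Of all tested genes 5.54% were called higher in the average and 4.75% in M. The sum of the markers was 433 to 555 CPM in KO CP2 M and 347 to 433 CPM in WT CP2 M. In F with CP2 the sum was 393 to 543 CPM in KO and 407 to 466 CPM in WT. Between CP2 and vehicle in KO 6 of 12 were higher, among them Gpr34 (0.52), where 3.91% of all tested genes were called in either direction. The sums were 312 to 440 CPM in vehicle F and 354 to 459 CPM in vehicle M. With the mean of the list as a covariate the C1qa difference between CP2 and vehicle in KO was 0.10 in place of 0.44, and the C1qc difference between genotypes in M under CP2 was 0.24 in place of 0.58; neither was called. With the off-gene read share in the model these values were 0.31 and 0.40, and neither was called.

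**Figure D3:**
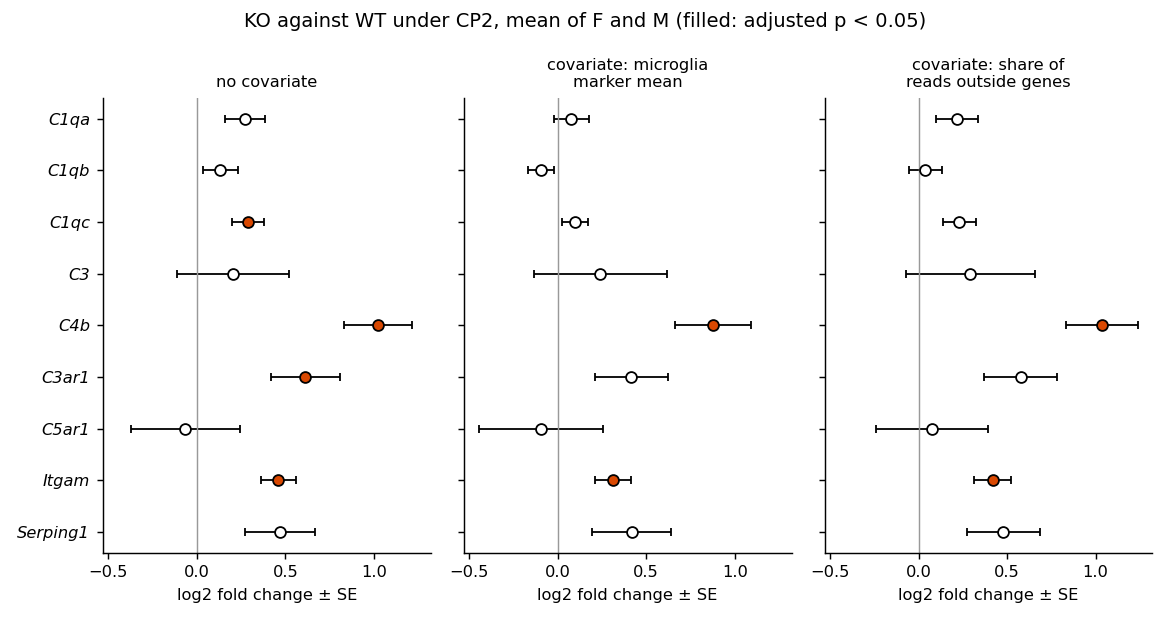
Log2 fold changes (x axis) with standard errors of the 9 members between KO and WT under CP2, averaged over F and M, without a covariate, with the microglia marker mean and with the off-gene read share; filled points have an adjusted p under 0.05. C4b and Itgam are filled in all 3 panels, and C1qc and C3ar1 only in the first.

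The 3 chains of C1q made similar but not constant shares of the C1q level over the groups. C1qb made 33.8% to 37.8% of the summed C1q level in the 8 group means, C1qa 32.0% to 35.3% and C1qc 29.1% to 33.1%. In F with vehicle the C1qc share was 31.6% to 35.0% in KO samples and 27.9% to 30.6% in WT samples. The C1qb share there was 31.8% to 35.9% in KO and 34.6% to 39.8% in WT. The C1qa share was 29.1% to 36.6% in KO and 32.2% to 36.4% in WT. Differences in shares were not tested. After the group means were taken out, C1qa and C1qb correlated over the 36 samples with r = 0.88, rho = 0.86, C1qa and C1qc with r = 0.89, rho = 0.88, and C1qb and C1qc with r = 0.91, rho = 0.89. All 3 had an adjusted permutation p of 0.00012 for r. Their unadjusted permutation p of 1e-05 is the smallest these permutations can give. Without the 2 samples farthest from the median r was at least 0.87. The samples also differ in depth and in off-gene read share, whose part in these correlations was not tested.

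Itgam, the alpha chain of complement receptor 3 (CD11b) on microglia and other myeloid cells, was higher in KO under CP2 and higher with CP2 in KO. In M under CP2, KO samples had 6.11, 9.13, 9.23, 9.27 and 9.62 CPM and WT samples 4.81, 5.21, 5.47, 5.61 and 5.86 CPM. All 5 KO samples lay above all 5 WT samples, L291 by the least. In this comparison 11.1% of all tested genes did not overlap in either direction. In F under CP2, KO samples had 6.50, 7.41, 7.43, 7.70 and 8.71 CPM and WT samples 4.91, 5.96, 6.24, 7.02 and 7.98 CPM, which overlapped. The average was 1.38-fold higher (log2 fold change 0.46, SE 0.10, adjusted p = 0.00158), with a log2 fold change of 0.69, SE 0.14, adjusted p = 0.00120 in M and a log2 fold change of 0.23, SE 0.14, adjusted p = 0.439 in F. The calls of the average and of M held in all 20 and all 10 fits without 1 sample.

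With vehicle Itgam did not differ between genotypes by the test. KO samples had 4.73, 5.22, 5.52, 5.75 and 5.80 CPM in F and 4.73, 7.32 and 8.36 CPM in M. WT samples had 5.50, 6.02, 6.35, 6.41 and 7.28 CPM in F and 5.77, 6.36 and 7.39 CPM in M, and the average log2 fold change was -0.08 (SE 0.12). In KO the CP2 samples of F all lay above the vehicle samples of F, as for 1.04% of all genes in either direction, and the M samples overlapped. Itgam was 1.34-fold higher with CP2 in KO (log2 fold change 0.42, SE 0.11, adjusted p = 0.0211), and -0.12 (SE 0.11) on the log2 scale in WT. This call was lost without L322, the lowest KO vehicle M sample (0.32, adjusted p = 0.146). It was also lost with the microglia marker mean (0.17) or the off-gene read share (0.32) in the model; for KO against WT under CP2 the average stayed called with both (0.31 and 0.42), and the M difference lost its call with both (0.42 and 0.56).

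C3ar1, the receptor for the C3a fragment, was higher in KO under CP2 in the average. In F, KO samples had 2.46, 2.61, 2.89, 3.76 and 4.01 CPM and WT samples 2.05, 2.06, 2.14, 2.21 and 2.25 CPM, with no overlap, as for 3.02% of all genes. In M, KO samples had 2.83, 3.36, 3.55, 3.67 and 3.83 CPM and WT samples 1.18, 1.91, 2.26, 2.52 and 3.01 CPM, where 1 WT sample, L267, reached above the lowest KO sample. The average was 1.53-fold higher (log2 fold change 0.61, SE 0.19, adjusted p = 0.0326), and neither F (0.55, adjusted p = 0.317) nor M (0.67, adjusted p = 0.119) passed in the fit of all samples; M passed when its samples were fitted alone (0.67). The call was lost without any 1 of L233, L234, L259, L262, L292 or L299 (0.53 to 0.60, adjusted p 0.0506 to 0.0781) and with the microglia marker mean (0.42) or the off-gene read share (0.58) in the model.

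With vehicle, C3ar1 was spread widely in KO F. Its 5 values there were 1.14, 1.27, 4.12, 4.20 and 4.94 CPM, against 1.97, 2.18, 2.32, 2.41 and 2.55 CPM in WT F. L279 and L283 lay below every WT sample and the other 3 KO samples above every WT sample. In M the values were 1.68, 2.28 and 3.50 CPM in KO and 2.29, 2.44 and 2.51 CPM in WT. The log2 fold change was 0.45 (SE 0.27) in F and 0.04 (SE 0.36) in M, neither called (adjusted p = 0.362 and 0.981).

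C5ar1, the receptor for the C5a fragment, and C3 were not called in any of the 16 comparisons. C5ar1 ranged from 0.0741 to 1.82 CPM and C3 from 0.498 to 3.48 CPM over the 36 samples. Under CP2 the genotypes differed by -0.06 (SE 0.31) for C5ar1 and 0.20 (SE 0.32) for C3 on the log2 scale. The standard errors of these 2 genes were the largest of the members, so differences of the size seen for Itgam were not detectable for them. Among the fitted comparisons of 2 groups, the largest C5ar1 difference was between CP2 and vehicle in KO M, with 0.592, 0.792, 0.949, 1.06 and 1.26 CPM against 0.203, 0.508 and 0.679 CPM (log2 fold change 1.01, SE 0.53, adjusted p = 0.290).

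Serping1, which encodes the inhibitor of the C1r and C1s proteases, separated the genotypes in M under CP2 without passing the test. KO samples had 12.9, 13.3, 13.7, 17.4 and 22.5 CPM and WT samples 5.71, 9.09, 9.27, 10.7 and 11 CPM (log2 fold change 0.81, SE 0.28, adjusted p = 0.0633). These groups did not overlap, as for 11.1% of all tested genes in either direction. Serping1 was called when the M samples were fitted alone (0.81) and by DESeq2 (0.80). In F the values were 5.24, 6.71, 11, 17.4 and 19.3 CPM in KO and 7.65, 8.62, 10.5, 12 and 15.6 CPM in WT, and the KO samples lay on both sides of the WT samples (log2 fold change 0.13, SE 0.28, adjusted p = 0.877). The average had a log2 fold change of 0.47, SE 0.20, adjusted p = 0.125; without L227 it was called (0.57, adjusted p = 0.0387). With vehicle the difference was 0.01 (SE 0.23).

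Markers of meningeal fibroblasts moved with Serping1. Under CP2 2 of 7 were higher in KO in the average and 4 of 7 in M, among them Col1a1 (1.05) and Lum (0.83) in M. Of all tested genes 5.54% were called higher in the average and 4.75% in M. The sum of the markers was 162 to 268 CPM in KO CP2 M against 88.3 to 150 CPM in WT CP2 M. In F under CP2 the sum was 66.0 to 217 CPM in KO and 78.4 to 166 CPM in WT. With group means taken out, Serping1 correlated with the mean of these markers at r = 0.89, rho = 0.85 over 36 samples, and with that of border macrophages at r = 0.83, rho = 0.81 (adjusted permutation p = 0.00012 for both r, and r = 0.85 and 0.78 without the 2 samples farthest from the median). Their part in the Serping1 difference was not tested.

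Within groups C4b was set against the marker lists of microglia, astrocytes, border macrophages and meningeal fibroblasts as well. The other lists, that of oligodendrocytes among them, were not used for correlations. C4b correlated with the astrocyte marker mean at r = 0.69, rho = 0.59 (adjusted permutation p = 0.00207), with the meningeal fibroblast mean at r = 0.64, rho = 0.62 (adjusted permutation p = 0.00702) and with the microglia mean at r = 0.25, rho = 0.16 (adjusted permutation p = 0.480). Without the 2 farthest samples r was 0.60, 0.58 and 0.13. The microglia mean correlated with C1qb at r = 0.74, rho = 0.73, with C1qc at r = 0.70, rho = 0.74, with C1qa at r = 0.59, rho = 0.61 and with Itgam at r = 0.57, rho = 0.52, with adjusted permutation p from 0.00012 to 0.0102; r stayed between 0.60 and 0.72 without the 2 farthest samples. C1qb also correlated with the astrocyte mean (r = 0.59, rho = 0.58, adjusted permutation p = 0.00958, and r = 0.52 without the 2 farthest). So did C1qc (r = 0.50, adjusted permutation p = 0.0295) and Serping1 (r = 0.51, adjusted permutation p = 0.00821). C4b correlated with the border macrophage mean (r = 0.55, adjusted permutation p = 0.0334) and C5ar1 with the meningeal fibroblast mean (r = 0.56, adjusted permutation p = 0.0152). Differences between correlations were not tested. In all 72 relations were computed, and 12 of the 36 pairs of members had an adjusted permutation p under 0.05 for r. C4b and Serping1 were among these pairs (r = 0.63, rho = 0.60, adjusted permutation p = 0.00869; r = 0.58 without the 2 farthest), as were C4b and C5ar1, which was sparse (r = 0.56, rho = 0.52, adjusted permutation p = 0.0101). Beside C4b, of 7 astrocyte markers 1 was higher in KO under CP2 in the average, Gfap (log2 fold change 1.28, SE 0.30, adjusted p = 0.00421). Of all tested genes 5.54% were called higher there. With vehicle edgeR called 0 of the astrocyte markers (2 at an unadjusted p under 0.05, 0 by DESeq2), where 6.67% of all tested genes were called. The list summed to 5959 to 7042 CPM in KO CP2 M and 4882 to 5763 CPM in WT CP2 M. In F under CP2 the sum was 4782 to 6534 CPM in KO and 5423 to 5781 CPM in WT. The part of these markers in the C4b difference was not tested.

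**Figure D4:**
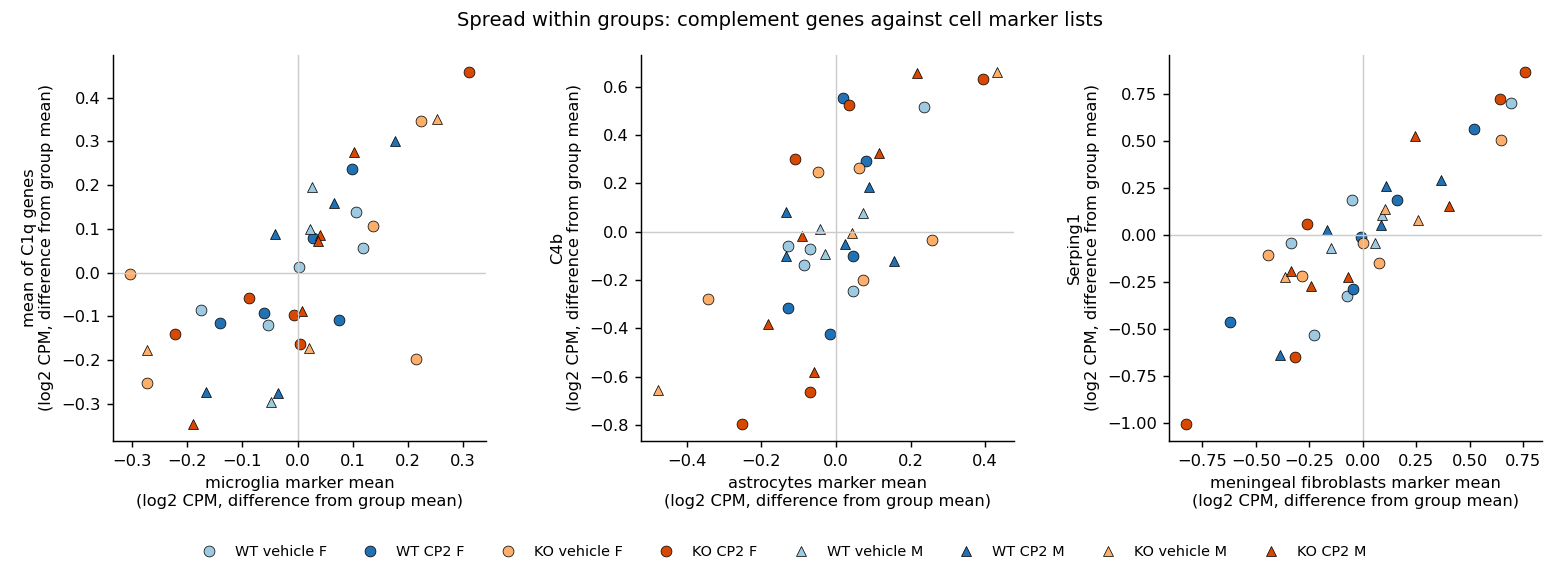
Each point is 1 of 36 samples, drawn as the difference of its log2 CPM from the mean of its group (both axes), coloured by genotype and treatment with circles for F and triangles for M. Left, the mean of the C1q genes against the microglia marker mean; middle, C4b against the astrocyte marker mean; right, Serping1 against the meningeal fibroblast marker mean, where the points lie closest to a line (r = 0.89).

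Whether the CP2 effect differed between genotypes was tested as an interaction. All 9 members had a positive interaction, with a median of 0.36 on the log2 scale beside -0.00479 for all tested genes, but edgeR called 0 of them, where 0.715% of all genes were called; 4 were at an unadjusted p under 0.05 and DESeq2 called 2, C1qa and Itgam. The values were a log2 fold change of 0.54, SE 0.15, adjusted p = 0.0755 for Itgam and a log2 fold change of 0.54, SE 0.17, adjusted p = 0.125 for C1qa. C1qc had 0.36 (SE 0.14) and C1qb 0.34 (SE 0.15). Itgam was called without any 1 of L201, L291, L303 or L310 (0.56 to 0.62, adjusted p 0.0423 to 0.0488). All 12 microglia markers were positive in this contrast as well, and edgeR called 0 of them (8 at an unadjusted p under 0.05, 3 by DESeq2).

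The difference between the letters was tested directly. The KO effect under CP2 was smaller in F for all 9 members, with C1qc at a log2 fold change of -0.58, SE 0.18, adjusted p = 0.108 (F minus M), C4b at -0.69 (SE 0.38) and Itgam at -0.45 (SE 0.20). edgeR called 0 members there (4 at an unadjusted p under 0.05, 0 by DESeq2), with 0.82% of all genes called. C1qc was called without L234 or L267 (-0.70 to -0.67, adjusted p 0.0240 to 0.0476). For the KO effect with vehicle edgeR called 0 members (1 unadjusted, C1qb at -0.54 (SE 0.23), 0 by DESeq2; 0.102% of all genes), and for the CP2 effect in KO 0 members (0 unadjusted, 0 by DESeq2; 0.691% of all genes). The members were thus called in M and not in F under CP2 without a difference between the letters that passed the test.

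Other genes of the cascade were read from a list of 45, of which 35 were tested. With vehicle 1 of 35 was higher in KO and 0 were lower, a smaller share than the 6.67% of all tested genes called. This gene was C1ra, which encodes the C1r protease that C1q activates. In M, KO samples had 2.18, 2.54 and 4.12 CPM of C1ra and WT samples 0.582, 0.833 and 0.904 CPM, with no overlap, as for 20.9% of all tested genes, and in F 1.42, 1.43, 2.15, 2.98 and 3.05 CPM and 0.556, 0.851, 1.36, 1.51 and 2.59 CPM. The average had a log2 fold change of 1.30, SE 0.28, adjusted p = 0.00283, and M had a log2 fold change of 1.93, SE 0.44, adjusted p = 0.0324. With the off-gene read share in the model the average was 1.16 and no longer called. The call of the average held in all 16 fits without 1 sample, and that of M was lost without any 1 of L285, L300, L303, L310 or L322 (1.61 to 2.06, adjusted p 0.0616 to 0.249). Its near copy C1rb had at most 0.103 CPM.

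Under CP2 2 of the 35 were higher in KO and 3 lower in the average, and 3 were higher and 2 lower in M. These edgeR counts lie beside a background of 11.6% of all tested genes called in the average and 9.99% in M. DESeq2 called 7 of the list in the average, 9 in M and 0 in F, beside 3702, 3257 and 915 of all genes. Whether the list stands apart from other genes was not tested. Cfp, which encodes properdin, the positive regulator of the alternative pathway, fell most in M, with 2.26, 2.81, 3.18, 3.63 and 3.91 CPM in KO and 5.90, 6.45, 9.35, 10.5 and 10.8 CPM in WT. All KO samples lay below all WT samples, and 11.1% of all genes did not overlap there in either direction (log2 fold change -1.45, SE 0.22, adjusted p = 2.41e-05; average log2 fold change -0.91, SE 0.15, adjusted p = 7.95e-05). Itgax, the alpha chain of complement receptor 4, was higher in KO in the average (log2 fold change 1.83, SE 0.42, adjusted p = 0.00250). In M it had 0.475, 0.839, 1.12, 1.55 and 1.78 CPM in KO and 0.101, 0.126, 0.177, 0.189 and 0.364 CPM in WT, on 26 to 108 and 6 to 19 counts. Clu, encoding clusterin, an inhibitor of the membrane attack complex, averaged a log2 fold change of 0.18, SE 0.05, adjusted p = 0.0122. Its log2 fold change in M was 0.37 (SE 0.07). In F under CP2 the genotypes overlapped for each of these genes. There Cfp lay at 1.78 to 4.45 CPM in KO and 3.80 to 5.45 CPM in WT. Itgax lay at 0.279 to 0.932 CPM in KO and 0.0194 to 0.582 CPM in WT. For Clu the ranges were 920 to 993 CPM in KO and 866 to 1057 CPM in WT.

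The remaining calls were of regulators and of C1ra. In the average Csmd2, which encodes a membrane protein with complement control domains, fell (log2 fold change -0.30, SE 0.08, adjusted p = 0.0123). So did Cr1l, which encodes the rodent inhibitor Crry (log2 fold change -0.22, SE 0.07, adjusted p = 0.0396). C1ra was higher in M (log2 fold change 1.16, SE 0.33, adjusted p = 0.0207). The call of C1ra in M was lost without any 1 of L259, L262, L289 or L292 (0.99 to 1.10, adjusted p 0.0517 to 0.0857). The average of Cr1l lost its call without any 1 of L216, L227, L234, L257, L259, L262, L263, L272, L291, L292, L298 or L311 (-0.22 to -0.19, adjusted p 0.0535 to 0.0919). The average of Clu lost its call with the microglia marker mean as a covariate. Cfp, Itgax, Clu and Csmd2 kept their calls in all 20 fits without 1 sample. Between CP2 and vehicle in KO M, where 5.1% of all genes were called, Clu rose (log2 fold change 0.35, SE 0.08, adjusted p = 0.00709) and Cd46, encoding a cofactor for the cleavage of C3b and C4b, fell (log2 fold change -1.32, SE 0.34, adjusted p = 0.0186). Clu lost this call without any 1 of L319 or L322 (0.30 to 0.33, adjusted p 0.0696 to 0.0795) and Cd46 without any 1 of L292, L319 or L322 (-1.28 to -1.20, adjusted p 0.0561 to 0.108). edgeR called 0 of the 35 in the average over KO (7 at an unadjusted p under 0.05, 1 by DESeq2), in the average over WT (1 unadjusted, 0 by DESeq2) and in the interaction (5 unadjusted, 0 by DESeq2).

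**Figure D5:**
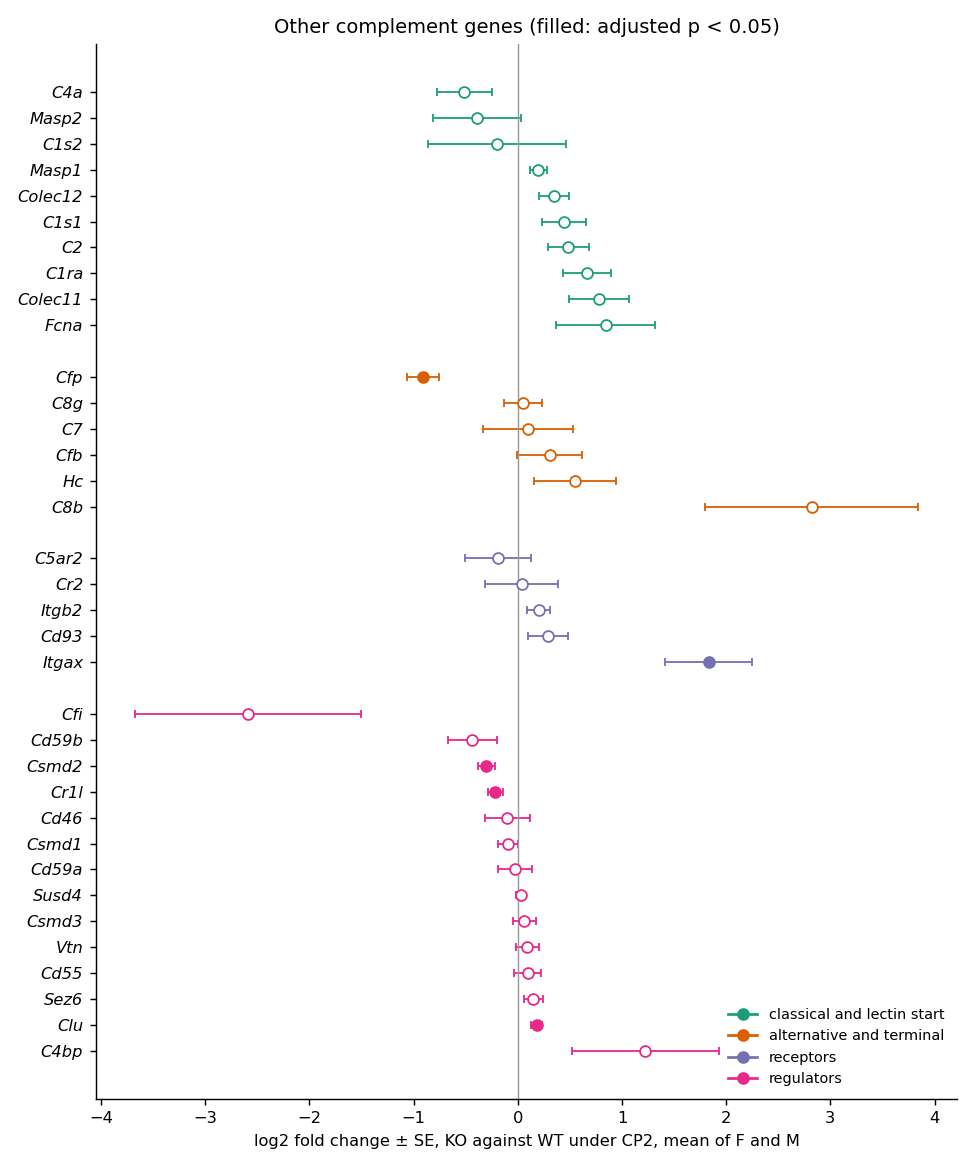
Log2 fold changes (x axis) with standard errors of the 35 tested genes of the other complement list between KO and WT under CP2, averaged over F and M, coloured by role; filled points have an adjusted p under 0.05. Itgax and Clu are filled to the right of 0, and Cfp, Csmd2 and Cr1l to the left.

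The genes most like C1q were found by the correlation of log2 CPM with the mean of the 3 C1q genes over the 36 samples, among 15235 tested genes with at least 1 CPM on average. Tyrobp, the signalling adaptor of microglial receptors, came first (r = 0.87, and 0.82 with group means taken out). It was followed by Polr2f, a shared RNA polymerase subunit (0.86), Ctsz, a lysosomal protease (0.84), Higd2a, a mitochondrial protein (0.83), and Ftl1, the ferritin light chain (0.83). These r values are descriptions over samples that share depth and groups. Tyrobp was higher in KO under CP2 (log2 fold change 0.41, SE 0.12, adjusted p = 0.0206) and higher with CP2 in KO (log2 fold change 0.49, SE 0.13, adjusted p = 0.0283). Its difference with vehicle was -0.06 (SE 0.14). Ctsz and Ftl1 were also called higher in both comparisons, while Polr2f (0.08 and 0.22) and Higd2a (0.06 and 0.21) were not called. The genes were picked by likeness to C1q over these same samples, so shared group differences follow in part from the choice.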

How the data were processed

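PolyA RNA from a Trizol kit went into TruSeq libraries, per the labels' protocols. The deposited table holds raw counts per Ensembl gene; per the submitters' processing notes STAR and HTSeq were used with GRCm39, and versions, annotation release and strand setting are not given in the sources used here, so genes that overlap or lie antisense are uncertain. The 5 summary lines of the table were left out. Symbols came from a GENCODE M21 table (52073 of 56980 identifiers matched) and exon lengths from the same annotation.

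Counts of all 36 samples were fitted with edgeR 4.0.16 in R 4.3.3 (TMM, filterByExpr, robust quasi-likelihood test, 1 coefficient for each of 8 groups) in 16 contrasts, of which 1, the difference of the KO effect under CP2 between F and M, was added after seeing the data. P-values were adjusted by Benjamini-Hochberg over 25601 genes and called under 0.05. SE is the log2 fold change over the root of F. Log2 CPM used a prior count of 2. Correlations used 100000 permutations within groups. The functions were tested on simulated data. Alternatives were DESeq2 1.42.0, RLE size factors, no filter, 2 covariates, each letter alone and samples left out. Named were all 9 members, from the other complement list up to 4 genes called each way per contrast, the 5 genes most like C1q, and at most 3 genes of a marker list. Some items are not reported here. The members and lists were chosen with earlier results of these data known.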

Additional observations from a re-analysis of the deposited data

Results flagged for a closer look

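In 54 tests for a sample far from the rest of its group of 5, 7 values from 6 samples stood out, where chance gives about 1 in 20. L234 (KO CP2 F) was high for C1qa, at 58.1 CPM against 38.8 to 41.5 in the other 4, and for C1qb, at 60.6 against 36.2 to 41.9. L291 (KO CP2 M) was low for Itgam, at 6.11 CPM against 9.13 to 9.62, and is the M sample with 47.3 CPM of Xist. L278 (WT vehicle F) was high for C4b, at 39.8 CPM against 23.4 to 26.7. L283 (KO vehicle F) was high for Serping1, at 17.3 CPM against 10.5 to 11.8. L267 (WT CP2 M) was low for C3, at 0.536 CPM against 1.09 to 1.16, and L227 (KO CP2 F) was low for C5ar1, at 0.0741 CPM, which is 4 counts, against 0.859 to 0.888.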

How the results depend on the processing

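No paired analysis was possible because no sample number is shared between groups. No difference of a member changed direction on a call under any alternative run. With the off-gene read share in the model the number of members called fell from 1 to 0 for KO against WT with vehicle, from 1 to 0 in F with vehicle, from 4 to 2 under CP2, from 4 to 1 in M under CP2 and from 2 to 0 for CP2 in KO. With the microglia marker mean as a covariate it fell from 1 to 0 in F with vehicle, from 4 to 2 under CP2, from 4 to 1 in M under CP2 and from 2 to 0 for CP2 in KO. With no filter on low counts it was 0 in F with vehicle and 1 for CP2 in KO, and with RLE size factors 0 in F with vehicle. DESeq2 called 1 in M with vehicle (C4b), 1 for CP2 in KO M (C1qa) and 2 in the interaction. Leaving out each sample in turn gave 1 to 1 for KO against WT with vehicle, 0 to 1 in F with vehicle, 2 to 5 under CP2, 3 to 5 in M under CP2, 0 to 3 for CP2 in KO, 0 to 1 for CP2 in KO M, 0 to 1 for the interaction and 0 to 1 for the letter difference of the KO effect under CP2. Without L266 and L291 together C4b was 1.12 and Itgam 0.51 on the log2 scale under CP2, both called. Why the calls moved was not tested. C3 and C5ar1 are limited by their low counts, and groups of 3 limit the M vehicle comparisons.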
